A study of Mus musculus with 6 samples.

Results

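The genes that encode collagen chains were followed in primary mouse dermal fibroblasts targeted for loss of the transcriptional coactivators YAP and TAZ. Knockout cells were studied with and without H-151, an inhibitor of the DNA-sensing adaptor STING. A row of the expression table was taken as a member when its symbol was Col, a number, a and a number, which gave 30 of 13706 rows. Of the 44 protein-coding mouse genes with such a symbol in GENCODE M21, the other 14 were not analysed here. Messenger RNA was counted with QuantSeq, a method that reads the 3' end of each polyadenylated transcript, in 3 groups of 2 libraries. Control cells were Yap1 fl/fl; Wwtr1 fl/fl without Cre and were given 1 µM 4-hydroxytamoxifen for 72 hr. Knockout cells, labelled YTcKO, had R26-CAG-CreER on top of the same floxed Yap1 and Wwtr1 alleles and got the same tamoxifen, and the cells labelled YTcKO+H151 were of this genotype and also received 1 µM H-151 for that time. The floxed alleles, the tamoxifen and medium with 20% serum were shared by all groups. The Cre is driven from the ROSA26 locus by CAG, a promoter active in most cell types, so cells other than fibroblasts in the culture were exposed to it as well, and an effect of Cre itself cannot be told apart from that of losing YAP and TAZ. Nothing in the labels ties the 2 libraries of a group to separate cultures or mice, so the tests see only how much these libraries vary, which may be technical variation.

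Collagens are trimers of chains that wind around each other in a triple helix, and each chain is encoded by its own gene. Fibrillar collagens form the striated fibrils that give dermis its tensile strength. Network collagens build sheets such as those of basement membranes, FACIT collagens sit on the surface of fibrils, and transmembrane collagens are anchored in the cell membrane. Dermal fibroblasts are the main source of the interstitial types, and the amount of collagen mRNA they hold is a common measure of fibrosis and of matrix loss. YAP and TAZ respond to matrix stiffness and act through the TEAD DNA-binding proteins.

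The 30 chains comprised 10 fibrillar, 6 network, 5 FACIT, 3 beaded-filament (type VI), 2 multiplexin (types XV and XVIII) and 2 transmembrane chains, with Col7a1 of anchoring fibrils and Col28a1. Levels are given as scaled CPM, the deposited unit (read counts scaled for library size), and are written for libraries 1 and 2 of a group in that order. Because each transcript is read at its 3' end, levels were not divided by gene length. Changes are log2 differences of scaled CPM + 1 with their SE, tested with limma over 13648 genes, and "rose" or "fell" is used only at an adjusted p under 0.05. All 30 chains passed the filter on low values, a level of 1 or more in 2 or more libraries. Col25a1 passed it through the YTcKO libraries alone and Col9a1 through 1 library each of YTcKO and YTcKO+H151. For collagen chains, and for other genes where the change is given with its SE, a call that was lost when 1 library was left out carries the mark †. Calls of the other partner and marker genes were not checked for this. The adjusted p values of those fits are given where the change of the gene is given with its SE.

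Read totals over the table's genes ran from 12444986 to 15308100. Wwtr1, which encodes TAZ, stood at 213 and 218 in control, 4.79 and 5.03 in YTcKO and 3.07 and 4.00 in YTcKO+H151, and Yap1 at 122 and 128, 66.4 and 68.3, and 45.3 and 42.4. For both genes the YTcKO+H151 libraries lay below the YTcKO libraries (log2 change -0.39 for Wwtr1 and -0.61 for Yap1). The 2 knockout groups thus differ in these transcripts as well as in H-151. The floxed exons are not named in the labels, so 3' tags that lie outside them do not measure deletion. The fibroblast markers were all present (8 of 8, summed level 9133 to 9210 in control, 8760 to 8876 in YTcKO and 8240 to 8296 in YTcKO+H151). That sum is led by Vim (mean 5595, 5749 and 4758) and hides separate courses of the members. Of the 8, 2 rose and 2 fell in YTcKO (25% each, against 18.2% and 14.2% of all genes), from -1.19 for Pdgfra to 1.35 for Fap. With H-151, 3 rose and 4 fell (37.5% and 50%, against 19.4% and 21.4%). Of 10 keratinocyte markers, 2 were among the rows of the table. Summed levels of 14 macrophage markers were 1342 to 1559, 1668 to 1673 and 3424 to 4189 in these groups, and those of 7 of 9 adipocyte markers 1351 to 1583, 1200 to 1378 and 3210 to 4331. Markers of melanocytes and Schwann cells (8 of 11) summed to 81.8 to 90.4, 181 to 195 and 86.4 to 104, those of mural cells (6 of 8) to 102 to 111, 141 to 144 and 76.7 to 87.3, and those of endothelium (7 of 9) to 18.2 to 19.9, 12.7 to 13.8 and 20.3 to 23.1. Their part in the collagen results was not tested. In such bulk libraries fewer cells of a type and less RNA per cell cannot be told apart.

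Promoter sequence was available for 24 of the 30 chains, in 27 windows of 250 bases before a RefSeq start site (GRCm38.p6). The windows of 3 chains are shown because their mRNAs took contrasting courses; they were chosen after the values were seen. Col10a1 and Col25a1 were high in YTcKO only, and Col23a1 was the chain that rose with H-151. They are read 5' to 3' on the plus strand, from chr10:34389731-34389980 (Col10a1), chr3:130180595-130180844 (Col25a1) and chr11:51289670-51289919 (Col23a1). Capitals mark the motifs searched for on both strands, which were the CCAAT box (CCAAT), the TATA box (TATAAA), the TEAD motif (GGAATG) and the interferon-stimulated response element (a pair of GAAA runs with 2 bases of any kind between them).
Col10a1: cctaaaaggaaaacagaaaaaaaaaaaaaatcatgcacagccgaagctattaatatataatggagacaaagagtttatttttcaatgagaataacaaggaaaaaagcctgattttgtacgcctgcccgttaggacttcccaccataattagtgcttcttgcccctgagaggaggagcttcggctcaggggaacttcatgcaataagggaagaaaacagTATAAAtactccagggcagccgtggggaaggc
Col25a1: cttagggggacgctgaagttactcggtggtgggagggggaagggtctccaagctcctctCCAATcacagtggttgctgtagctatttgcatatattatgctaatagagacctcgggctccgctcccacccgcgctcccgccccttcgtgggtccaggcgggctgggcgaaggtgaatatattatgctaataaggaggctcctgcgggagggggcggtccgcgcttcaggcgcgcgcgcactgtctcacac
Col23a1: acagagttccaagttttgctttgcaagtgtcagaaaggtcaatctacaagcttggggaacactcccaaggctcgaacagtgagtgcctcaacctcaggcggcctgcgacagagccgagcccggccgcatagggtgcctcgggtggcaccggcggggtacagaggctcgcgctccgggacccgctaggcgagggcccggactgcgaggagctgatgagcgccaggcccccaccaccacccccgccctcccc

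The Col10a1 window held a TATA box 32 bases before the start, the Col25a1 window a CCAAT box 191 bases before it, and the Col23a1 window none of the 4 motifs. The Col25a1 window lies inside the annotated gene, which spans 130131501 to 130599877 on chromosome 3, so its start site is an internal one. Over the 27 windows of collagen chains, the TEAD motif was found in 3 (Col3a1, Col6a2 and Col18a1), or 11.1%, against 12.6% of all 32851 windows. The CCAAT box was found in 11, or 40.7%, against 33.8%, and the TATA box in 3 (Col3a1, Col10a1 and Col11a2), or 11.1%, against 12.4%. The interferon-stimulated response element was found in 0 windows of these chains and in 2.98% of all windows. Matches describe the letters in these windows and do not measure binding.

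Fibrillar chains, and type I above all, made up most of the collagen mRNA in every library. All 30 chains together took 3.36% and 3.41% of the reads in control, 3.54% and 3.74% in YTcKO and 2.60% and 2.44% in YTcKO+H151. The YTcKO+H151 libraries lay below the other 4, and the YTcKO libraries above the control libraries by a smaller step. Col1a1, Col1a2 and Col3a1 supplied 76.8% ± 0.105 of these reads in control, 77.01% ± 0.00114 in YTcKO and 74.7% ± 1.35 in YTcKO+H151 (SD, n = 2). Type IV, type VI and transmembrane chains went another way from the bulk, with both YTcKO+H151 libraries above both control libraries. Type IV took 0.100% and 0.0974% of reads in control, 0.111% and 0.120% in YTcKO and 0.117% and 0.112% in YTcKO+H151. Few of these reads were from Col4a5, whose level lay below control with H-151. Type VI took 0.181% and 0.186%, 0.209% and 0.225%, and 0.202% and 0.204%. Transmembrane chains took 0.00880% and 0.00786%, 0.00983% and 0.00930%, and 0.0129% and 0.0145%. Shares of reads are given without a test, since 2 libraries against 2 cannot give an exact two-sided permutation p below 0.333.

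**Figure D1:**
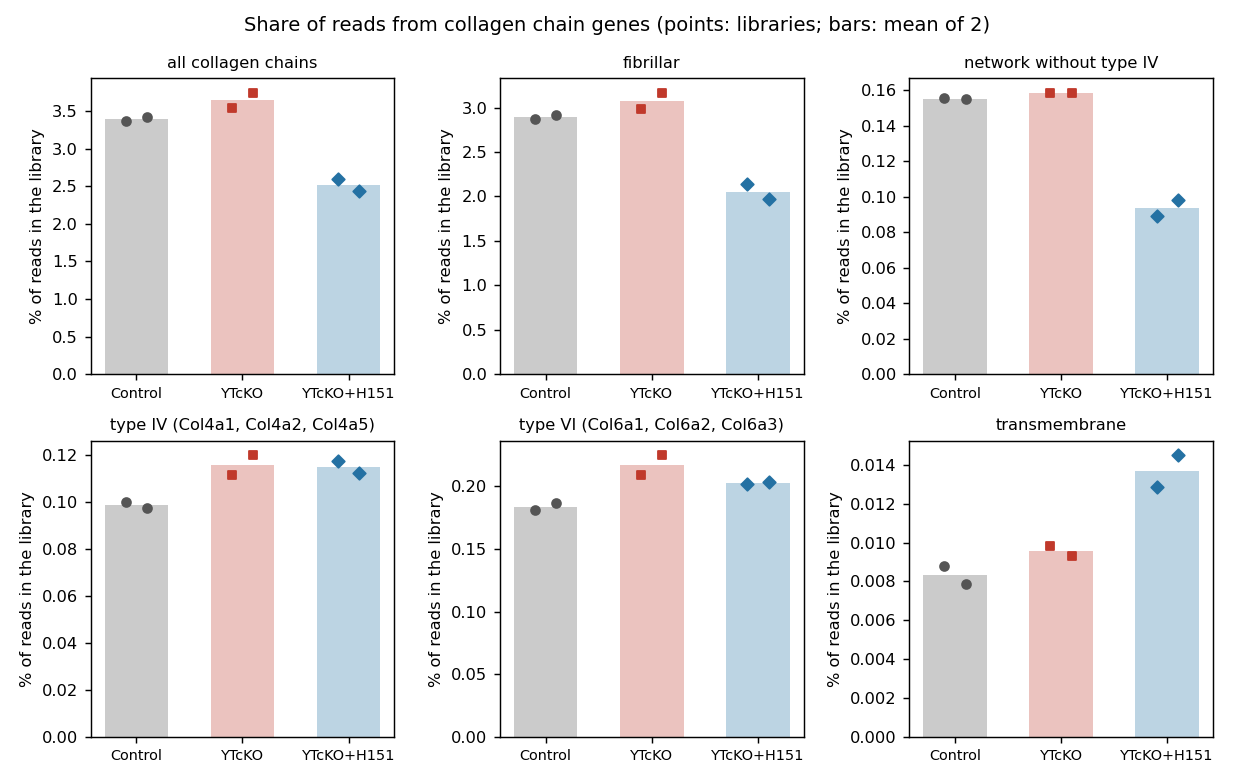
Share of all reads (%, y axis) from all collagen chains and from 5 sets of them in each group; points are libraries and bars the mean of 2. The total is lowest in YTcKO+H151 (2.60% and 2.44%). The type IV share there (0.117% and 0.112%) lies above both control libraries, as do the shares of type VI and transmembrane chains.

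In YTcKO against control, 18 of the 30 chains rose and 3 fell, with a median log2 change of 0.34. Over all genes tested, 18.2% were higher and 14.2% lower, with a median of -0.01. The libraries of the groups did not overlap for 21 higher and 3 lower chains, against 33.4% and 33.5% of all genes. Leaving out Col25a1, which passed the filter through YTcKO alone, and Col9a1, which reached 1 in both libraries of no group, 17 of 28 rose and 3 fell, with a median of 0.32. The sharpest rises among these were those of Col10a1, Col18a1 and Col15a1, which are not major chains of dermal fibrils, and rises of the abundant chains were small. Col11a1, Col12a1† and Col4a5† fell. The YTcKO columns of the table sum to more than the others (1083568 and 1081201 against 961724 and 970039 in control), and dividing each column by its sum (total-count scaling) shifted the all-gene median to -0.16 and left 12 chains that rose and 3 that fell.

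With H-151 added to the knockout, 23 of the 30 chains fell and 1 rose, with a median log2 change of -0.64. Over all genes tested, 21.4% were lower and 19.4% higher, with a median of 0.02. Groups did not overlap for 24 lower and 2 higher chains, against 33.7% and 35.5% of all genes. Without Col25a1 and Col9a1, 22 of 28 fell and 1 rose, with a median of -0.64. As ratios of mean levels, the falls of these chains included 4.99-fold for Col18a1, 4.76-fold for Col10a1, 3.13-fold for Col28a1, 2.94-fold for Col14a1 and 2.58-fold for Col11a1. The transmembrane chain Col23a1 rose. With total-count scaling the all-gene median was 0.18, and 17 chains fell and 2 rose, the added one being Col27a1 (0.27, adjusted p = 0.0265, limma). In this comparison 14 of 14 macrophage and 7 of 7 adipocyte markers rose (median log2 change 1.15 and 1.53). Their part in the fall of collagen chains was not tested.

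Against control, the cells with H-151 had 13 chains lower and 6 higher, with a median of -0.16. The same comparison over all genes had 11.4% lower and 11.5% higher, with a median of 0.00. Groups did not overlap for 16 lower and 7 higher chains, against 29.5% of all genes in each direction. Without Col25a1 and Col9a1 the counts were 13 and 6 of 28, with a median of -0.21. The lower chains included all of Col1a1, Col1a2†, Col3a1, Col5a1 and Col5a2, the fibrillar chains of dermis. The higher chains were Col23a1, Col9a3†, Col15a1†, Col6a3, Col4a1† and Col4a2†. Of these, only the Col23a1 call held under each alternative run. The 3 comparisons share libraries in pairs, so their values are given side by side and are not independent of each other.

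**Figure D2:**
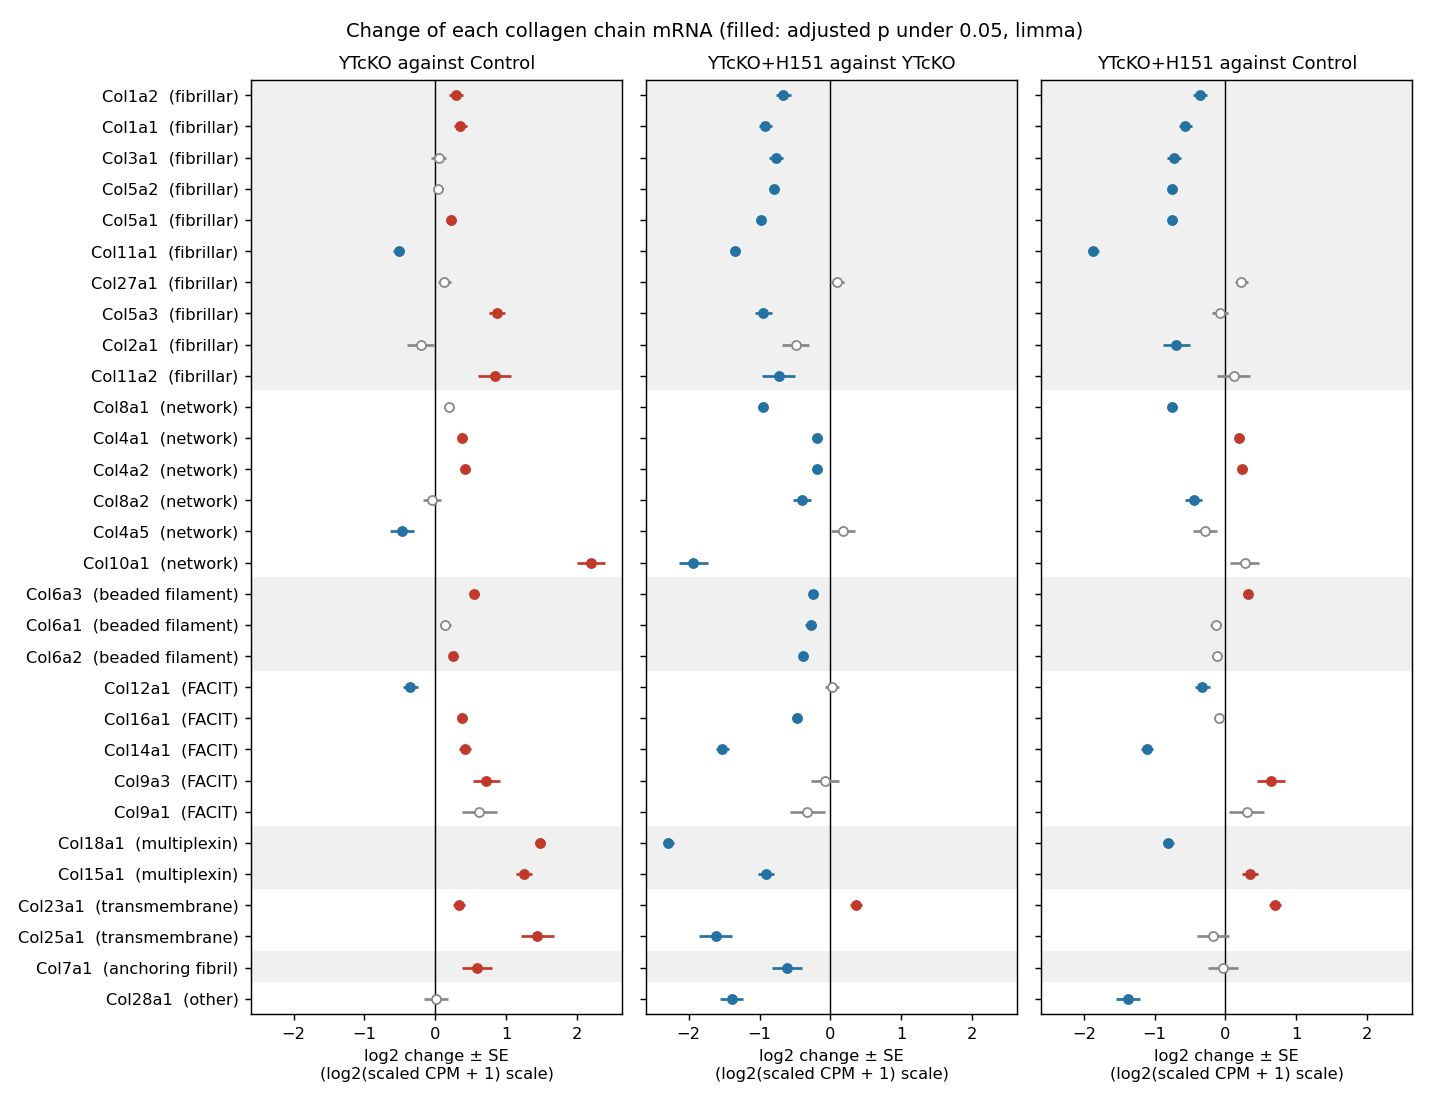
Log2 change ± SE (x axis, log2(scaled CPM + 1) scale) of each of the 30 chains in the 3 comparisons, ordered by type; filled points passed the test (red higher, blue lower) and open points did not. In the middle panel 23 chains are filled on the left of 0 and Col23a1 alone is filled on the right; the Col25a1 call rests on a filter passed through YTcKO alone.

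Type I collagen, 2 chains of Col1a1 with 1 of Col1a2, is the main protein of skin. Col1a1 lies on chromosome 11 (94936224 to 94953042, GRCm38) and Col1a2 on chromosome 6 (4504814 to 4541544). Col1a2 stood at 12677 and 13328 in control, 16106 and 15874 in YTcKO and 10473 and 9749 in YTcKO+H151, the highest level of the chains in every library. The 3 groups did not overlap, with YTcKO on top and YTcKO+H151 at the bottom. It rose in YTcKO by 0.30 ± 0.10† (adjusted p = 0.0323, limma), fell with H-151 by 0.66 ± 0.10 (6.17e-05) and was lower than control by -0.36 ± 0.10† (0.0155). Col1a1 stood at 7400 and 7418, 8931 and 10020, and 5177 and 4845 in the same groups, in the same order and again without overlap. Its changes were 0.35 ± 0.09† (adjusted p = 0.00794), -0.92 ± 0.09 (6.47e-07) and -0.56 ± 0.09 (0.000310). The rise of Col1a2 in YTcKO had adjusted p = 0.176 and 0.0876 without control 1 and 2 and 0.227 and 0.198 without YTcKO 1 and 2, and that of Col1a1 0.0506 and 0.0512 without control 1 and 2 and 0.183 without YTcKO 2. Under total-count scaling these rises were 0.13 (adjusted p = 0.294) and 0.19 (0.114), and under quantile normalization 0.10 (0.475) and 0.00. The difference of Col1a2 between YTcKO+H151 and control had adjusted p = 0.0562 and 0.131 without control 1 and 2.

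Col3a1, the chain of type III collagen that mixes with type I in skin and vessels, stood at 4768 and 4644 in control, 4481 and 5286 in YTcKO and 3131 and 2593 in YTcKO+H151. Control and YTcKO overlapped, and both YTcKO+H151 libraries were lower than all others. The difference in YTcKO was 0.05 ± 0.10 (adjusted p = 0.755, limma), and it turned negative under the 3 other scalings, passing the test as a fall under quantile normalization (-0.36, adjusted p = 0.0434). With H-151 Col3a1 fell by 0.77 ± 0.10 (1.22e-05). Its neighbour Col5a2 lies tail to tail with it on chromosome 1, 24.6 kb away (45374321 to 45503282, GRCm38), and encodes a chain of type V collagen, which starts fibrils and sets their diameter. The Col5a2 levels were 1799 and 1919, 1828 and 1999, and 1118 and 1088, with the same pattern of overlap. Its change was 0.04 ± 0.07 in YTcKO (adjusted p = 0.711), also negative under the 3 other scalings, and -0.79 ± 0.07 with H-151 (1.95e-07).

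Col5a1, the partner of Col5a2, stood at 705 and 717 in control, 811 and 856 in YTcKO and 415 and 427 in YTcKO+H151. The groups were separate, with YTcKO highest and YTcKO+H151 1.98-fold below it. It rose by 0.23 ± 0.06† in YTcKO (adjusted p = 0.0110, limma), fell by 0.98 ± 0.06 with H-151 (2.40e-09) and was lower than control by -0.75 ± 0.06 (3.30e-07). Its rise had adjusted p = 0.0744 and 0.0516 without control 1 and 2 and 0.143 without YTcKO 2, and was 0.06 (0.431) under total-count scaling and -0.0395 (0.657) under quantile normalization. Col5a3, a rarer type V chain, was at 30.5 and 28.2, 53.0 and 56.0, and 32.0 and 24.1. It rose by 0.87 ± 0.12 (2.11e-05) and fell by 0.95 ± 0.12 (6.73e-06), and its YTcKO+H151 libraries lay on both sides of the control values (-0.08 ± 0.12, adjusted p = 0.706).

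Col11a1 was the fibrillar chain that fell in both steps. Its chain of type XI collagen starts fibrils in cartilage and is made at low levels in other connective tissue. The gene lies on chromosome 3 (114030540 to 114220718). Levels were 154 and 168 in control, 113 and 112 in YTcKO and 42.4 and 44.5 in YTcKO+H151. No groups overlapped, and the order differed from that of type I, with control on top. The falls were 0.52 ± 0.07 in YTcKO (adjusted p = 4.27e-05, limma) and 1.35 ± 0.07 with H-151 (3.13e-10), so that YTcKO+H151 was 3.71-fold below control (-1.87 ± 0.07, adjusted p = 1.17e-10). Markers of cartilage cells (7 of 10 among the rows, led by Sox9) summed to 398 to 410, 284 to 308 and 302 to 328 in the groups. The sum follows Sox9, which fell in YTcKO (-0.74), whereas Acan, Sox5 and Sox6 rose there (0.89, 1.54 and 0.48), and the list's median was 0.23. With H-151, 2 of these 7 rose and 3 fell (28.6% and 42.9%, against 19.4% and 21.4% of all genes), with a median of -0.34. Their part was not tested.

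Col27a1, a fibrillar chain of developing cartilage, passed no test, with levels of 42.4 and 48.5, 51.6 and 47.8, and 50.1 and 56.4. Its differences were 0.13 ± 0.10 in YTcKO (adjusted p = 0.331, limma) and 0.10 ± 0.10 with H-151 (0.451). The remaining fibrillar chains were low. Col2a1 of cartilage was at 6.20 and 7.71, 4.96 and 6.90, and 4.25 and 3.56, and was lower than control with H-151 (-0.69 ± 0.19†, adjusted p = 0.0153; 0.159 without control 2 and 0.0738 without YTcKO+H151 2). Col11a2 was at 1.21 and 1.51, 3.05 and 3.41, and 1.04 and 2.19. It rose by 0.84 ± 0.23† (adjusted p = 0.0107) and fell by 0.73 ± 0.23† (0.0200). The rise had adjusted p = 0.0773 without control 1 and 0.0520 and 0.0897 without YTcKO 1 and 2, and the fall 0.0701 and 0.119 without YTcKO 1 and 2 and 0.245 without YTcKO+H151 1.

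Among fibrillar chains as a type, 5 of 10 rose and 1 fell in YTcKO (median 0.18), 0 rose and 8 fell with H-151 (median -0.78), and 0 were higher and 7 lower in YTcKO+H151 than in control (median -0.63). All genes had 18.2% higher and 14.2% lower in the first comparison, 19.4% and 21.4% in the second and 11.5% and 11.4% in the last. The plot of levels by library shows the spread from Col1a2 to Col11a2.

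**Figure D3:**
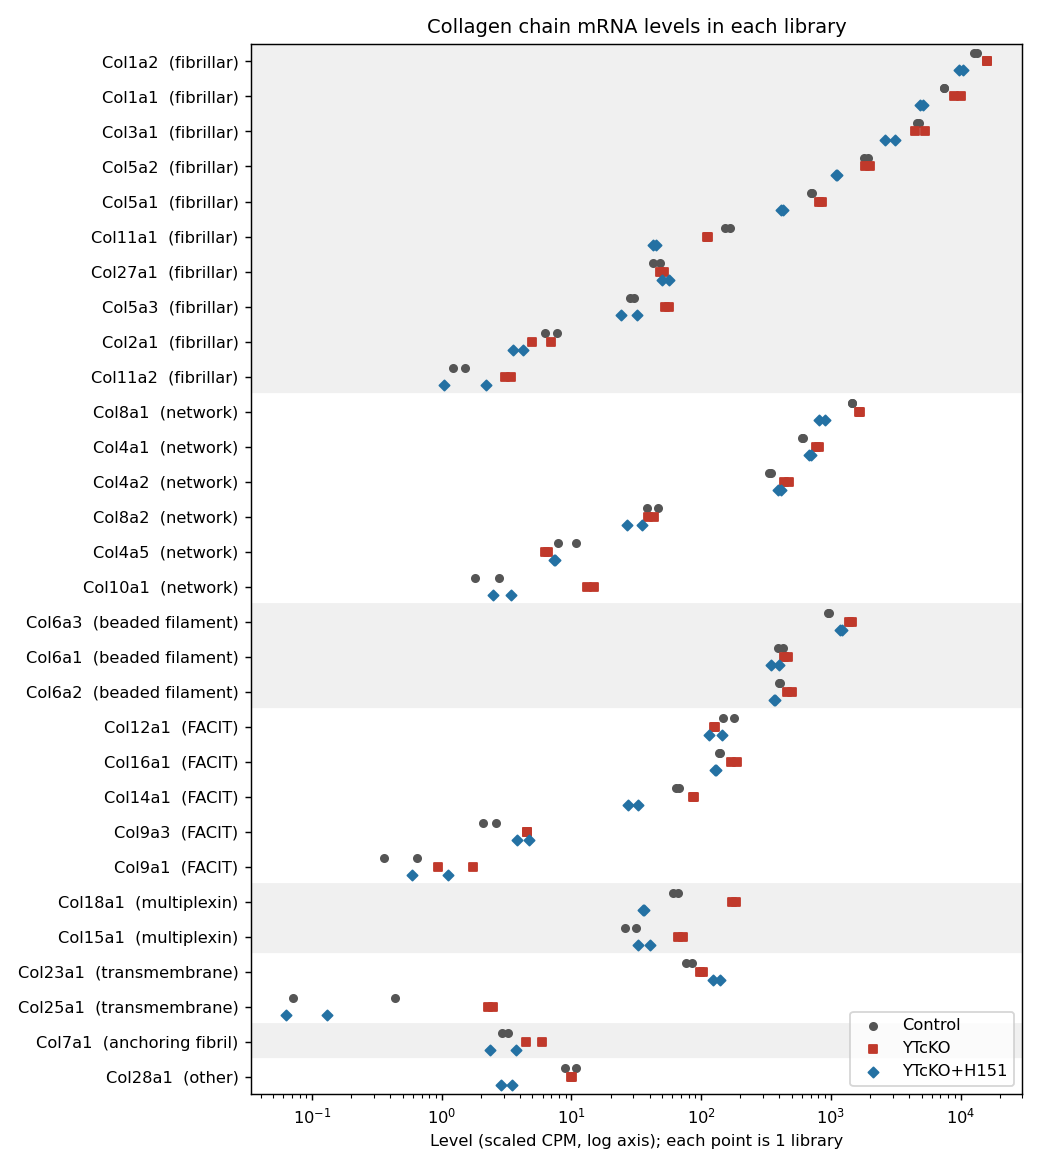
Level of each chain in each library (x axis, scaled CPM on a log axis), ordered by type and by control level within a type; points are single libraries. The YTcKO+H151 points (blue) lie left of the others for most fibrillar chains, whereas for Col4a1, Col4a2 and Col6a3 they lie between control and YTcKO.

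Network chains took different courses, also within type IV. Type IV collagen is the scaffold of basement membranes. Col4a1 stood at 607 and 600 in control, 762 and 812 in YTcKO and 704 and 677 in YTcKO+H151, and Col4a2 at 347 and 334, 438 and 478, and 410 and 391. For both chains the H-151 libraries lay between the other groups, with no overlap. They rose by 0.38 ± 0.06 (adjusted p = 0.000223, limma) and 0.42 ± 0.07 (0.000102) in YTcKO, and these calls held under each alternative that was run. With H-151 they fell by 0.19 ± 0.06† (0.0288) and 0.19 ± 0.07† (0.0310), which became -0.01 for each under total-count scaling and 0.11 and 0.08 under quantile normalization. Against control they were 0.19 ± 0.06† (0.0405) and 0.23 ± 0.07† (0.0177) higher. The fall of Col4a1 had adjusted p = 0.0641 and 0.245 without YTcKO 1 and 2 and 0.0862 without YTcKO+H151 2, and that of Col4a2 0.288 without YTcKO 2 and 0.103 without YTcKO+H151 2. The difference from control had adjusted p = 0.130, 0.188 and 0.112 for Col4a1 and 0.0544, 0.141 and 0.0588 for Col4a2 without control 1, control 2 and YTcKO+H151 1.

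Both genes start from 1 place on chromosome 8, head to head. Their RefSeq start sites, 11312826 for Col4a1 and 11312805 for Col4a2, are 21 bases apart. The window before the Col4a2 start held a CCAAT box 32 bases before it, a place that lies inside Col4a1, downstream of its start, and the Col4a1 window held another 145 bases before its own start. The ratio of Col4a1 to Col4a2 was 1.75 and 1.79 in control, 1.74 and 1.70 in YTcKO and 1.71 and 1.73 in YTcKO+H151. These 6 ratios spanned a narrower relative range than those of the other pairs examined. An antisense gene annotated over the 3' end of Col4a1, Gm15418, was not analysed here. Col4a5, an X-linked chain of basement membranes, was low at 7.83 and 10.9, 6.27 and 6.56, and 7.51 and 7.32. It fell in YTcKO by 0.47 ± 0.17† (adjusted p = 0.0488, limma; 0.421 without control 2, 0.186 and 0.141 without YTcKO 1 and 2).

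With H-151 the type VIII chains fell below control, unlike Col4a1 and Col4a2. Col8a1, a short-chain collagen of vessel walls and the cornea, was the most abundant network chain, at 1446 and 1466 in control, 1669 and 1657 in YTcKO and 812 and 909 in YTcKO+H151. The groups were separate. The YTcKO difference, 0.19 ± 0.07, missed the threshold (adjusted p = 0.0505, limma), and it passed in edgeR (0.0491) and DESeq2 (0.0374). With H-151 it fell by 0.95 ± 0.07 (1.58e-08), to below control (-0.76 ± 0.07, 1.13e-06). Its partner Col8a2 stood at 46.8 and 38.3, 38.9 and 43.1, and 35.0 and 27.0, with control and YTcKO overlapping. It fell with H-151 by 0.40 ± 0.12† (0.0160; 0.0552 and 0.168 without YTcKO 1 and 2 and 0.166 without YTcKO+H151 2) and was below control by -0.45 ± 0.12† (0.0149; 0.191 without control 1 and 0.129 without YTcKO+H151 2).

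Col10a1, a chain best known from hypertrophic cartilage, had the largest log2 rise of the 30 in YTcKO. Levels were 2.78 and 1.80 in control, 13.1 and 14.9 in YTcKO and 3.40 and 2.501 in YTcKO+H151. The YTcKO libraries stood apart, and the other groups overlapped. It rose by 2.21 ± 0.20 (adjusted p = 2.04e-07, limma), a 6.13-fold ratio of means, and fell with H-151 by 1.93 ± 0.20 (8.11e-07). The end of Col10a1 overlaps Nt5dc1 on the other strand, and the strand setting of the counting is not given in the sources used here. Nt5dc1 was at 7.97 and 6.63, 7.49 and 6.64, and 7.12 and 8.504, with the groups overlapping. Over the 6 network chains, 3 rose (50%) and 1 fell (16.7%) in YTcKO, against 18.2% and 14.2% of all genes. With H-151, 0 rose and 5 fell (83.3%), against 19.4% and 21.4%.

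Type VI collagen forms beaded filaments around cells. Col6a3, its longest chain, stood at 956 and 975 in control, 1374 and 1463 in YTcKO and 1219 and 1184 in YTcKO+H151. As for type IV, the H-151 libraries lay between the others. It rose in YTcKO by 0.55 ± 0.07 (adjusted p = 6.24e-06, limma) under each alternative run, fell with H-151 by 0.24 ± 0.07† (0.00923; 0.136 without YTcKO 2, and -0.06 with adjusted p = 0.466 under total-count scaling) and was above control with it (0.31 ± 0.07, 0.00262). Col6a2 stood at 399 and 403, 462 and 498, and 369 and 366, and Col6a1 at 388 and 430, 432 and 470, and 345 and 400. With H-151, Col6a2 lay below control, and Col6a1 overlapped it. Col6a2 rose by 0.26 ± 0.06† (0.00508; 0.104 without YTcKO 2; 0.09 and adjusted p = 0.246 under total-count scaling) and fell by 0.38 ± 0.06 (0.000149). Col6a1 changed by 0.14 ± 0.08 in YTcKO (0.193), negative under 2 other scalings, and fell with H-151 by 0.28 ± 0.08† (0.0104; 0.157 without YTcKO 2 and 0.0874 without YTcKO+H151 1; -0.10 and adjusted p = 0.310 under total-count scaling).

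The ratios of chains that assemble together showed where partners moved apart. Col6a3 over Col6a1 was 2.46 and 2.27 in control, 3.18 and 3.12 in YTcKO and 3.53 and 2.96 in YTcKO+H151, so that both Cre-bearing groups lay above control. Col1a2 over Col1a1 was 1.71 and 1.80, 1.80 and 1.58, and 2.02 and 2.01, highest with H-151. Col5a2 over Col5a1 was 2.55 and 2.68, 2.26 and 2.33, and 2.69 and 2.55, lowest in YTcKO. Col6a1 over Col6a2 (0.973 and 1.07, 0.935 and 0.942, 0.935 and 1.09) and Col8a1 over Col8a2 (30.9 and 38.3, 42.9 and 38.4, 23.2 and 33.7) overlapped between control and YTcKO+H151. No test was run on ratios.

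**Figure D4:**
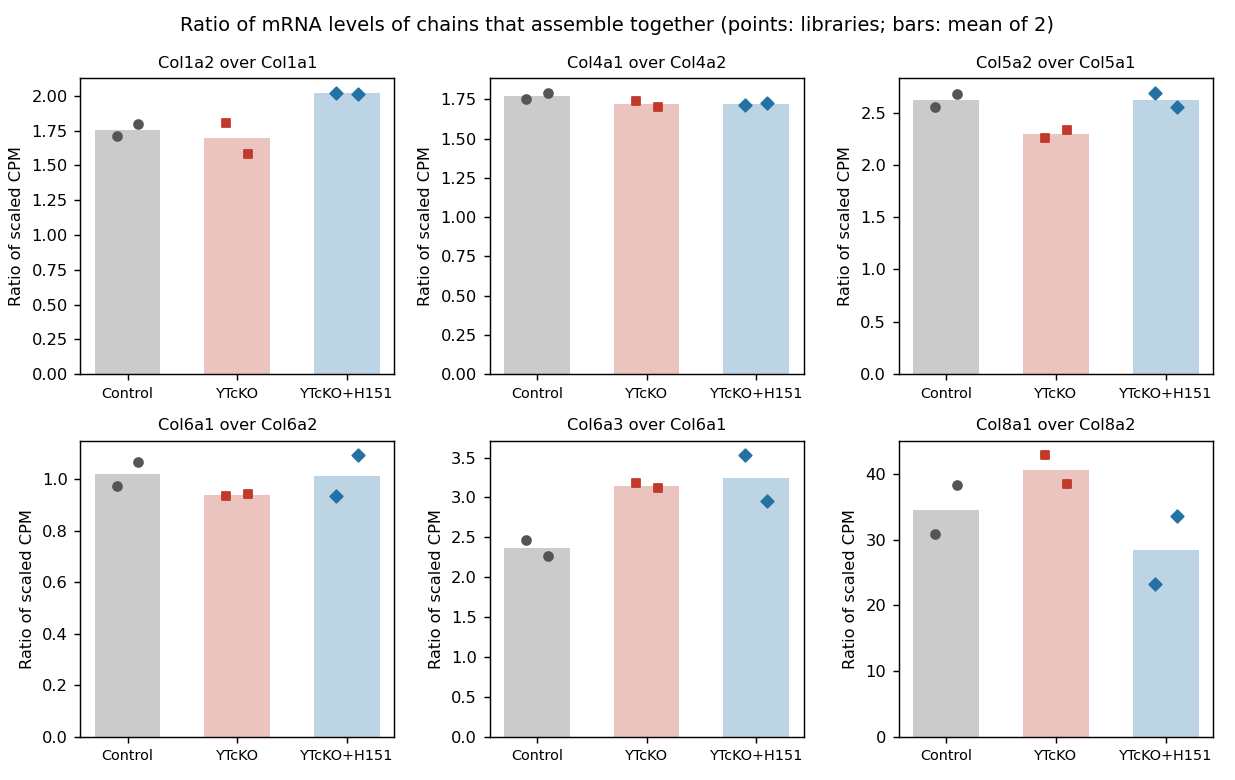
Ratio of scaled CPM (y axis) of 6 pairs of chains that assemble together, in each group; points are libraries and bars the mean of 2. The Col4a1 over Col4a2 ratio keeps to 1.70 to 1.79 over the 6 libraries, and Col6a3 over Col6a1 is higher in both Cre-bearing groups.

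FACIT chains did not move as 1 group. Col14a1, which binds the surface of fibrils (chromosome 15, 55307750 to 55520803), stood at 67.4 and 63.5 in control, 87.2 and 88.6 in YTcKO and 32.4 and 27.5 in YTcKO+H151. The groups were separate, with the order of type I. It rose by 0.42 ± 0.09 (adjusted p = 0.00178, limma) and fell by 1.53 ± 0.09 (7.53e-10), to 2.19-fold below control. Col16a1, found near basement membranes, stood at 140 and 137, 171 and 189, and 131 and 129. It rose by 0.37 ± 0.07 (0.000558) and fell by 0.47 ± 0.07 (5.27e-05), to just under control (-0.09 ± 0.07, 0.395).

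Col12a1, the FACIT chain of tissue under tension, went the other way in YTcKO. Its levels were 147 and 179 in control, 125 and 129 in YTcKO and 116 and 144 in YTcKO+H151. It fell by 0.35 ± 0.10† (adjusted p = 0.0134, limma), did not pass with H-151 (0.03 ± 0.10, 0.863) and was below control there (-0.32 ± 0.10†, 0.0277). The first had adjusted p = 0.219 without control 2 and 0.127 and 0.0961 without YTcKO 1 and 2, and the last 0.343 without control 2 and 0.229 without YTcKO+H151 1. Col9a3, a chain of cartilage FACIT, was low at 2.63 and 2.09, 4.53 and 4.51, and 4.70 and 3.81. It rose in YTcKO by 0.72 ± 0.19† (0.00839; 0.0820 without control 2 and 0.0521 without either YTcKO library), differed by -0.08 ± 0.19 with H-151 (0.785) and was above control there (0.64 ± 0.19†, 0.0226; 0.171 without control 2 and 0.150 without YTcKO+H151 1). Tcfl5 lies over its end on the other strand, at 4.25 to 6.84. Col9a1 was at 0.360 to 1.74 in all libraries and passed no test.

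The multiplexins, proteoglycan collagens of the basement membrane zone, rose furthest among chains above 10 scaled CPM in control. Col18a1, whose end is cleaved to endostatin and whose gene lies on chromosome 10 (77052178 to 77166548), stood at 61.2 and 66.0 in control, 174 and 185 in YTcKO and 36.0 and 35.8 in YTcKO+H151. Its groups lay far apart relative to the gaps within them. It rose by 1.48 ± 0.08 (adjusted p = 1.64e-10, limma), a 2.82-fold ratio, fell with H-151 by 2.29 ± 0.08 (4.60e-13) and ended 1.77-fold below control (-0.81 ± 0.08, 1.43e-06). All 3 calls held under each alternative run. Slc19a1 lies over its end on the other strand, at 11.7 to 16.5 in all libraries. Col15a1 stood at 31.3 and 25.7, 66.3 and 72.2, and 40.6 and 32.5. It rose by 1.26 ± 0.12 (2.42e-07) and fell by 0.91 ± 0.12 (8.74e-06) to a level above control (0.35 ± 0.12†, 0.0405; 0.359 without control 2 and 0.296 without YTcKO+H151 1). Endothelial cells also make both chains. Their summed markers were lower in YTcKO (12.7 to 13.8) than in control (18.2 to 19.9) and YTcKO+H151 (20.3 to 23.1). Of the 7, 1 rose and 4 fell in YTcKO (14.3% and 57.1%, against 18.2% and 14.2% of all genes). Summed mural cell markers were higher in YTcKO (141 to 144) than in control (102 to 111) and YTcKO+H151 (76.7 to 87.3). Of those 6, 3 rose and 0 fell in YTcKO (50% and 0%). The part of either cell type was not tested.

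The 2 transmembrane chains had different courses. Col23a1 stood at 84.5 and 75.8 in control, 104 and 98.1 in YTcKO and 123 and 139 in YTcKO+H151. The 3 groups were separate, in rising order. It rose by 0.33 ± 0.08† in YTcKO (adjusted p = 0.00479, limma; 0.0809 without control 2 and 0.0817 without YTcKO 1; 0.17 with adjusted p = 0.106 under total-count scaling), by a further 0.37 ± 0.08 with H-151 (0.00184) and by 0.70 ± 0.08 over both (1.16e-05). Col25a1, known from neurons, had 7 reads over the control group, 55 over YTcKO and 3 over YTcKO+H151, at 0.0710 and 0.432, 2.26 and 2.47, and 0.131 and 0.0630 scaled CPM. The ratio of YTcKO to control was 9.44 (95% counting interval 4.29 to 24.6) and that of YTcKO to YTcKO+H151 was 24.7 (8.02 to 123), and the intervals cover counting error only. Since Col25a1 entered the table of tested genes through its YTcKO level alone, these values are a description and its test is not used as support.

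Col28a1, made by Schwann cells of peripheral nerve among others, stood at 8.97 and 10.9 in control, 9.93 and 10.05 in YTcKO and 2.88 and 3.50 in YTcKO+H151. Control and YTcKO overlapped (0.01 ± 0.17, adjusted p = 0.962, limma), and with H-151 it fell by 1.40 ± 0.17 (5.18e-06), 3.11-fold below control. The summed markers of melanocytes and Schwann cells were higher in YTcKO (181 to 195) than in control (81.8 to 90.4) and YTcKO+H151 (86.4 to 104). Of the 8 markers, 5 rose and 2 fell in YTcKO (62.5% and 25%, against 18.2% and 14.2% of all genes), with a median of 0.50. With H-151, 2 rose and 2 fell (25% each, near the 19.4% and 21.4% of all genes), with a median of 0.01. Their part was not tested. Col7a1, the chain of the anchoring fibrils that tie epidermis to dermis, was at 2.92 and 3.24, 4.44 and 5.88, and 2.35 and 3.75. It rose by 0.58 ± 0.21† (0.0450) and fell by 0.62 ± 0.21† (0.0289). The rise was lost without any 1 of the 4 libraries (adjusted p = 0.178, 0.107, 0.0613 and 0.294 without control 1 and 2 and YTcKO 1 and 2) and in edgeR (0.0539), and the fall without YTcKO 2 (0.227) or YTcKO+H151 1 (0.259).

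Most enzymes that modify procollagen fell with H-151. For the partner lists that follow, the shares over all genes were 18.2% higher and 14.2% lower in YTcKO, and 19.4% higher and 21.4% lower with H-151. Prolyl and lysyl hydroxylases and their partners stabilise the helix and prepare its cross-links. Of 14 tested, 2 rose and 2 fell in YTcKO (14.3% each, near the shares over all genes; median 0.09), and 0 rose and 12 fell (85.7%) with H-151 (median -0.40). The lysyl hydroxylase Plod2 stood at 30.9 ± 3.91, 43.5 ± 1.69 and 15.7 ± 1.91 (SD, n = 2) and fell with H-151 by 1.42 ± 0.12 (adjusted p = 5.33e-08, limma). The prolyl hydroxylase subunits P4ha3 and P4ha1 fell by 0.90 ± 0.09 and 0.60 ± 0.08 with it, and the most abundant member, P4hb, fell in YTcKO by 0.25 ± 0.06† (0.00658; 0.0730 without control 2 and 0.111 without YTcKO 1). In YTcKO Plod2 and Plod3 rose and P4ha2 and P4hb fell.

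Of 18 genes of procollagen folding and export, 0 rose and 5 fell in YTcKO (27.8%, against 14.2% of all genes; median -0.09), which were Hsp90b1, Pdia3, Tmed2, Preb and Sec23a. With H-151, 1 (Preb) rose and 8 fell (44.4%, against 21.4% of all genes; median -0.16), among them Creb3l1, a transcription factor of secretory genes (-0.59 ± 0.09, adjusted p = 3.74e-05, limma), and the coat subunit Sec13 (-0.43 ± 0.07, 6.74e-05). The chaperone Hsp90b1 went from 1927 ± 234 to 1090 ± 23.8 in YTcKO (-0.82 ± 0.08, 5.19e-07). Of 7 genes of propeptide cleavage, 3 (Adamts2, Adamts14 and Furin) rose (42.9%, against 18.2%) and 0 fell in YTcKO (median 0.18), and 0 rose and 5 fell (71.4%, against 21.4%) with H-151 (median -0.41). The rise of the protease Furin (0.30 ± 0.07†, adjusted p = 0.00320, limma) had adjusted p = 0.0697 without YTcKO 2. Bmp1, the C-propeptide protease, fell from 113 ± 6.69 to 75.2 ± 0.0665 with H-151 (-0.58 ± 0.07, 7.65e-06), whereas its enhancer Pcolce was at 594 ± 17.9 and 595 ± 31.5.

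Lysyl oxidases cross-link fibrils. Of 5, 2 (Loxl1 and Loxl3) rose and 2 (Lox and Loxl4) fell in YTcKO (40.0% each, against 18.2% and 14.2% of all genes), and 0 rose and 3 (Loxl1, Loxl2 and Loxl3) fell with H-151 (60.0%, against 21.4%). Lox, the most abundant, fell in YTcKO by 0.36 ± 0.08† (adjusted p = 0.00343, limma; 0.0540 and 0.0706 without YTcKO 1 and 2). Loxl3 moved furthest, from 151.3 ± 8.47 in control to 352 ± 13.8 in YTcKO and 93.3 ± 6.24 in YTcKO+H151 (-1.91 ± 0.07 with H-151, adjusted p = 2.27e-12, limma). Of 16 proteins that bind fibrils, 6 rose and 4 fell in YTcKO (37.5% and 25%, against 18.2% and 14.2%; median 0.12), and 6 rose and 6 fell with H-151 (37.5% each, against 19.4% and 21.4%; median -0.11). Tgfbi, which binds collagen and integrins, stood at 51.4 ± 2.505, 145 ± 13.1 and 41.9 ± 3.47 (-1.77 ± 0.09 with H-151, 9.00e-11). The proteoglycan Prelp and the glycoprotein Thbs1 fell in YTcKO by 0.81 ± 0.06 (2.54e-08) and 0.97 ± 0.09 (3.74e-07). Sparc, a chaperone-like binder of collagen, was the most abundant at 8831 ± 420, 10192 ± 710 and 7409 ± 104, and fell with H-151 by 0.46 ± 0.10† (0.00109; 0.0619 without YTcKO 2).

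Of 13 collagen receptors and uptake genes, 6 rose and 2 (Itga1 and Ddr1) fell in YTcKO (46.2% and 15.4%, against 18.2% and 14.2% of all genes; median 0.19). With H-151, 2 (Mrc1 and Lair1) rose and 5 fell (15.4% and 38.5%, against 19.4% and 21.4%; median -0.07). The falls in YTcKO and the rises with H-151 were near or under the shares over all genes. Mrc1 and Lair1 are also made by macrophages, and Mrc1 is itself 1 of the 14 macrophage markers. The summed level of these markers was 1668 to 1673 in YTcKO and 3424 to 4189 with H-151. Their part in the rises of Mrc1 and Lair1 was not tested. Itga11, the integrin subunit by which fibroblasts hold type I collagen, stood at 168 ± 9.47, 174 ± 16.2 and 83.4 ± 1.41 and fell with H-151 by 1.05 ± 0.08 (adjusted p = 1.13e-08, limma). Itga1, a subunit with a preference for type IV collagen, fell in YTcKO by 0.58 ± 0.07 (3.12e-06). The shared subunit Itgb1 fell with H-151 by 0.40 ± 0.07 (0.000122), and the gelatin-degrading protease Fap rose in YTcKO from 6.16 ± 0.556 to 17.2 ± 2.47 (1.35 ± 0.16, 3.92e-06).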

How the data were processed

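The authors deposited 1 table of 13706 gene symbols in 6 libraries, 2 per group. Its values are a signal that the authors computed from read counts and named CPM, as deposited. The columns sum to 955838 to 1083568, as values scaled with edgeR's effective library sizes would, though no source used here states that step. STAR 2.5.3a, featureCounts, edgeR and mm10 are named per the submitters' processing notes. The annotation and strand setting are not given in the sources used here. In each column 100% of the values were whole multiples of 1 step, within 0.0006 scaled CPM, so read counts were recovered. The design assumed plain CPM, and its test on the log scale was kept.

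The main test was limma 3.58.1 (R 4.3.3) on log2 values with a pseudocount of 1. It used 13648 genes that reached 1 in 2 or more libraries (58 did not), a mean for each group over all libraries and a variance trend. Residual degrees of freedom were 3, and 15.7 with the prior. Benjamini-Hochberg adjustment ran over every gene tested, and the threshold was 0.05. The scripts were tested on simulated data. Alternatives were DESeq2 1.42.0 and edgeR 4.0.16 (quasi-likelihood) on recovered counts, other pseudocounts, filters and scalings, and fits without 1 library, where a lone library was assumed to vary like the rest. Members, types and gene lists were chosen with earlier results of these data known. A chain was described singly where a group mean reached 10. Partner genes named were, per list, up to 3 with the smallest p in either of the first 2 comparisons, the 1 with the highest mean, and members of counts of 5 or fewer. Positions are from GENCODE M21 (GRCm38) and promoters from RefSeq (GRCm38.p6).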

Additional observations from a re-analysis of the deposited data

How the results depend on the processing

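Of the called changes of collagen chains, 10 of 18 rises and 1 of 3 falls in YTcKO, 15 of 23 falls and the 1 rise with H-151, and 9 of 13 lower and 1 of 6 higher chains in YTcKO+H151 against control held under each alternative run. These counts include Col25a1, which passed the filter through YTcKO alone. With 1 library left out, rises in YTcKO numbered 12 to 13 and falls 1 to 3, falls with H-151 16 to 21, and in YTcKO+H151 against control 10 to 12 chains were lower and 2 to 6 higher. Falls in YTcKO were 1 without a variance trend. In YTcKO+H151 against control, chains higher were 2 without a trend and 3 in DESeq2. The replicate block gave 17 rises and 2 falls in YTcKO, 23 falls and 1 rise with H-151, and 13 lower and 5 higher chains against control. It ended the calls of Col1a2 (0.30, adjusted p = 0.0759, limma) and Col4a5 in YTcKO and of Col4a1 against control. No other call of a collagen chain was ended by it. Whether libraries of 1 number share a culture or preparation is not known from the labels. The deviations of same-numbered libraries correlated at -0.0676 (control with YTcKO), 0.154 (control with YTcKO+H151) and -0.128 (YTcKO with YTcKO+H151). With 2 libraries per group these values cannot decide it. A block with the YTcKO numbers crossed, chosen after seeing the data, gave 20 rises in YTcKO and 24 falls with H-151.

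The median change of the chains in YTcKO was 0.29 with median scaling, 0.13 with quantile normalization and 0.18 with total-count scaling. With H-151 it was -0.70 and -0.42 with pseudocounts of 0.25 and 4, -0.52 with quantile normalization, -0.48 with total-count scaling, -0.71 in edgeR, -0.72 in DESeq2 and -0.74 to -0.59 with 1 library left out. Against control it was -0.22 with a pseudocount of 0.25, -0.32 with a filter on a mean of 10, -0.23 in edgeR, -0.23 in DESeq2 and -0.26 to -0.11 with 1 library left out. Over all genes, those lower in YTcKO (1938) were 1266 with the filter on a mean of 10, 2987 with quantile normalization, 4054 with total-count scaling, 1217 in DESeq2 and 1165 to 1252 with 1 library left out. Genes higher with H-151 (2643) were 1676 with that filter and 4770 with total-count scaling, which left 1930 lower. Against control, 937 genes were lower without a trend, and with 1 library left out 924 to 1499 were lower and 951 to 1373 higher, each least without control 2. Without Col1a1, Col1a2 and Col3a1, the collagen share was 0.787% of reads in control, 0.837% in YTcKO and 0.637% in YTcKO+H151.

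Signs turned for these changes. In YTcKO with median, quantile and total-count scaling, Col3a1 was -0.0083, -0.36 (adjusted p = 0.0434, limma) and -0.12, and Col5a2 -0.016, -0.085 and -0.12. With quantile normalization Col5a1 was -0.040, Col27a1 -0.0018, Col6a1 -0.062 and Pcolce -0.049, and with total-count scaling Col27a1 was -0.032, Col6a1 -0.023, Pcolce -0.020 and Col28a1 -0.14 (-0.043 with median scaling). With H-151 Col9a3 was 0.070 with total-count scaling, and Col4a1 was 0.11 and Col4a2 0.078 with quantile normalization. With 1 library left out, the YTcKO change ran from -0.071 to 0.17 for Col3a1, -0.19 to 0.096 for Col8a2 and -0.11 to 0.14 for Col28a1. The H-151 change ran from -0.20 to 0.047 for Col9a3 and reached -0.13 for Col12a1. Against control it ran from -0.39 to 0.034 for Col25a1, -0.28 to 0.12 for Col5a3, -0.28 to 0.22 for Col7a1 and -0.20 to 0.44 for Col11a2.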
